A study of Mus musculus with 4 samples.

Results

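Hepatic transcripts of 10 genes that carry small nucleolar RNAs (snoRNAs) in their introns were examined, namely Snhg1, Snhg3, Snhg5, Snhg6, Snhg8, Snhg11, Snhg12, Snhg15, Snhg18 and Gas5. The genes were taken by symbol. The set was chosen by the reads of Snhg1, which differed between the 2 control pools, so values of that comparison are given as a description. The 48 h comparison of Snhg1 uses the same control 48 h reads and is a description too. Of the 10 genes, 9 had a row of their own among 27027 entries of the count table, and 6 of those 9 (Snhg1, Snhg6, Snhg8, Snhg12, Snhg18 and Gas5) averaged 10 or more normalized reads over the libraries, as did 12113 entries in all.

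RNA came from the liver of male C57BL/6 mice (C57BL/6J in the methods of the study), aged 9 to 12 weeks and fasted for 10 h, that received either NaCl solution as control or acetaminophen (APAP) at 300 mg/kg by intraperitoneal injection. Livers were taken at 24 h or 48 h, and each of the 4 groups was sequenced as 1 library of pooled RNA, from 6 mice per control pool and 7 mice per APAP pool. Sequencing tagged the 3′ end of polyadenylated RNA. With 1 library per group no difference between conditions could be tested. Ratios below are ratios of normalized reads with a 95% exact (Clopper-Pearson) interval in brackets, which covers counting error only and not the variation among mice. Total reads ranged from 4859661 to 5698778, and summed markers of hepatocytes ranged from 76509 to 94568 RPM (reads scaled to a library total of 1000000), which fits the liver label. In pooled tissue, fewer cells of a type and less RNA per cell cannot be told apart.

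Small nucleolar RNAs guide the chemical modification of ribosomal RNA. Those with the C and D boxes direct ribose methylation and those with the H and ACA boxes direct pseudouridylation. In mammals most are cut out of introns of a host transcript after splicing. The spliced host is often poorly coding and, like Gas5 and Snhg1, is commonly degraded by nonsense-mediated decay. Many hosts start with a run of pyrimidines, as do mRNAs of ribosomal proteins.

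Snhg1 lies at chr19:8723475-8726443 (GRCm38, plus strand) with 8 annotated snoRNAs inside it. They are printed, from GENCODE M21 transcripts, because the Snhg1 entry of the table lists Snhg1 together with 5 of them, Gm25894, Gm24452, Gm24453, Gm22744 and Gm22680, each as "snoRNA or Snhg1", whereas Gm25855, Gm23246 and Snord22 had separate entries. Those separate entries name the snoRNA or Snhg1 too, so a read in any of them may stem from either RNA. Capitals mark a C box, spelled TGATGA, with at most 15 bases before it, and a D box, spelled CTGA, with at most 15 bases after it, searched on the strand of the snoRNA.
Gm25855 (chr19:8723993-8724064): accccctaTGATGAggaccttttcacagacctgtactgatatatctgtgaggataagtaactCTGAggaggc
Gm25894 (chr19:8724251-8724325): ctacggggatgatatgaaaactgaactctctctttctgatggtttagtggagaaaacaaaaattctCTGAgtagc
Gm24452 (chr19:8724531-8724602): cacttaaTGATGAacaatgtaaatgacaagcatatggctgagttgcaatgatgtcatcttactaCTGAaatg
Gm24453 (chr19:8724868-8724943): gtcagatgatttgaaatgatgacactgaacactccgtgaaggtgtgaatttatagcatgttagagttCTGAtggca
Gm22744 (chr19:8725092-8725156): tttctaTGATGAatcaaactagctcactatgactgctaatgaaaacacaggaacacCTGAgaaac
Gm22680 (chr19:8725341-8725409): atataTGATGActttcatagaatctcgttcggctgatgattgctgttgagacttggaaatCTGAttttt
Gm23246 (chr19:8725594-8725660): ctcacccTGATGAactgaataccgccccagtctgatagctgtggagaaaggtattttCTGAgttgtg
Snord22 (chr19:8725866-8725991): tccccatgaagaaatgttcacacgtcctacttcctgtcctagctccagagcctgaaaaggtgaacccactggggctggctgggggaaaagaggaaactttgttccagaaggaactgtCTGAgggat
Snord22 is the longest of them at 126 bases, and the other 7 are 65 to 76 bases long. Snhg5 (chr9:88521050-88522929, minus strand) also shared its entry with snoRNAs, the near-identical pair Snord50a and Snord50b.
Snord50a (chr9:88521529-88521600): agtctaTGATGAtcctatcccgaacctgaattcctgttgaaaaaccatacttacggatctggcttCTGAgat
Snord50b (chr9:88521797-88521868): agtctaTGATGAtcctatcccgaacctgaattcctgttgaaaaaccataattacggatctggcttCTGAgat
As an example of the longer class with an ACA box, marked in capitals close to the 3′ end, the snoRNA of Snhg8 (chr3:123507937-123508066, minus strand) is given.
Snora24 (chr3:123507937-123508066): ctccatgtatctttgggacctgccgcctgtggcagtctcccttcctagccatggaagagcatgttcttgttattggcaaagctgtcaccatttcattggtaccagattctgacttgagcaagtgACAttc
Of 22 annotated snoRNAs of at most 100 bases inside the 10 genes, 18 (81.8%) held both boxes, compared with 294 of 459 (64.1%) annotated snoRNAs of that length in the mouse genome. The match is a property of the letters and is not a measurement of these libraries.

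**Figure D1:**
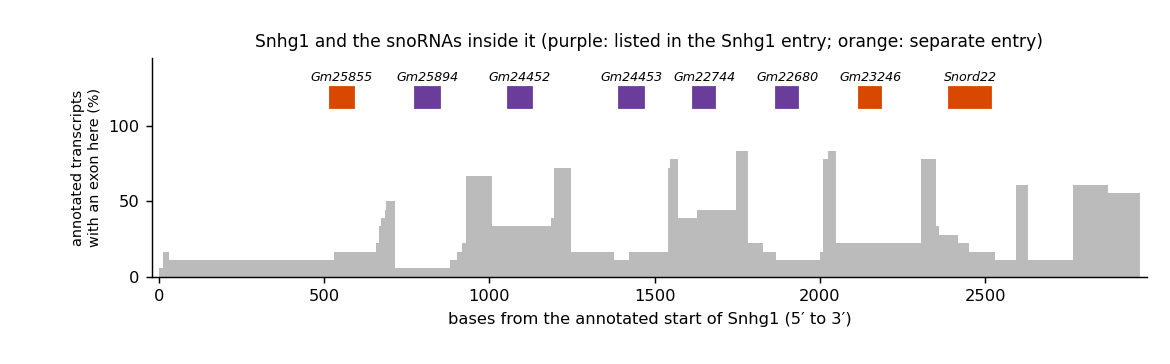
Position of 8 snoRNAs within Snhg1, in bases from its annotated start (horizontal axis), above the percentage of its 18 annotated transcripts that have an exon at each base (vertical axis). Purple boxes are the 5 snoRNAs listed in the Snhg1 entry and orange boxes are the 3 with a separate entry, and each snoRNA overlaps an exon of 1 to 8 of the 18 transcripts.

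Gas5 (chr1:161034422-161038539, plus strand) was the other host that shared its entry, with 5 snoRNA identifiers, of which 2 are for Snord80, while 5 more of its snoRNAs had separate entries. The main entries of Snhg6, Snhg8, Snhg12 and Snhg15 listed no snoRNA, since their snoRNAs had separate entries, and the snoRNAs inside Snhg11 and Snhg18 had no entry. Snhg3 had no row of its own. Its identifier stood in the entry of Snora73a, which had 0, 0, 2 and 0 reads and also names Rcc1, and in the entry of Rcc1, which encodes a chromatin-bound exchange factor for the GTPase Ran and overlaps Snhg3 on the same strand. The Rcc1 entry held 32 reads in the control 24 h pool, 27 in control 48 h, 89 in APAP 24 h and 83 in APAP 48 h. Reads of Snhg3 and Rcc1 cannot be told apart there, so no value is given for Snhg3. Snhg6 overlaps Mcmdc2, and Gas5 overlaps Zbtb37, on the opposite strand. Whether counting used the strand is not given in the sources used here, and the partners had at most 9 and 19 reads per library, respectively.

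Promoter windows around RefSeq start sites (GRCm38.p6) were at hand for 9 of the genes, with 2 start sites for Gas5. An unbroken run of at least 5 pyrimidines across the start stood at 4 of these 10 starts (40%), compared with 10.1% of 32851 starts in the table. A run at the start of the RNA is known to be shared with ribosomal protein genes. The run counted here could also take in bases before the start, so it is a looser measure. The 4 are printed from 15 bases before the start to 25 bases from it, with the run in capitals. Snhg18 and Snhg8 are on the minus strand and the others on the plus strand.
Gas5 (chr1:161035151-161035190): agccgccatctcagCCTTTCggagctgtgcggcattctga
Snhg12 (chr4:132308663-132308702): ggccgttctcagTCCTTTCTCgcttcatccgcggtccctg
Snhg18 (chr15:32244638-32244677): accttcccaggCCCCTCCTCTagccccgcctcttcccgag
Snhg8 (chr3:123508312-123508351): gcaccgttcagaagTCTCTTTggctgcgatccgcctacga

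Snhg1 carried 104 reads in control 24 h, 6 in control 48 h, 104 in APAP 24 h and 63 in APAP 48 h, or 21.4, 1.16, 18.2 and 12.8 RPM. The control 48 h library was the low one, and the other 3 lay well above it. The control 24 h level was 18.4 times [8.16 to 51.2] that of control 48 h, the highest such ratio among the 12113 entries, ahead of 12.3 for Derl3. This is the value for which the gene was picked. APAP at 48 h accordingly stood 9.18-fold [3.99 to 26.0] above control 48 h, while APAP at 24 h stood at 0.749 [0.565 to 0.993] of control 24 h. Set against control 24 h instead, APAP 48 h was at 0.500 of control, and against the sum of both control pools it was at 0.973. Both the direction and the size of the 48 h ratio thus rested on the 6 reads of 1 control library.

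**Figure D2:**
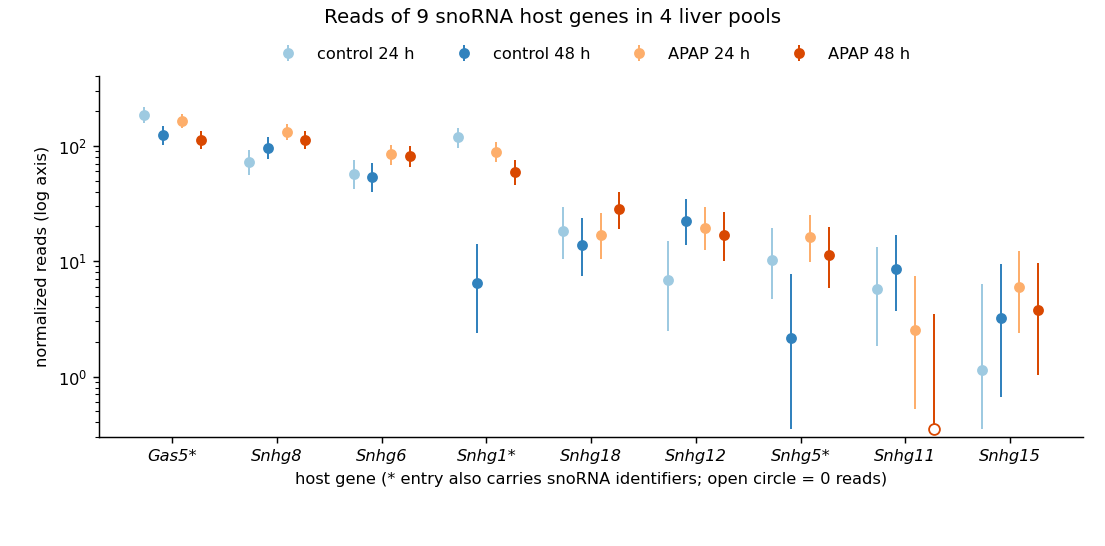
Normalized reads (vertical log axis) of 9 host genes in each of the 4 libraries, with bars for the 95% Poisson interval of the count, cut off at the lower edge of the plot. Asterisks mark genes whose entry also carries snoRNA identifiers, and Snhg1 in control 48 h, at 6.43 normalized reads, lies far under its other 3 values of 59.1 to 118.

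Snhg5, the second gene with snoRNAs in its entry, had 9 reads in control 24 h, 2 in control 48 h, 19 in APAP 24 h and 12 in APAP 48 h. Control 48 h was again the lowest, at few reads. The ratio of control 24 h to control 48 h was 4.77 [0.988 to 45.4] and that of APAP 48 h to control 48 h was 5.25 [1.17 to 48.3]. Its mean of 9.95 normalized reads fell just short of the filter.

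Gas5, whose spliced RNA is known to bind the glucocorticoid receptor and to accumulate when growth stops, had the most reads of the hosts when the libraries were summed. It had 164 reads in control 24 h, 115 in control 48 h, 193 in APAP 24 h and 121 in APAP 48 h. The 24 h pools lay above the 48 h pools in both treatments. APAP stood at 0.882 [0.712 to 1.09] of control at 24 h and at 0.920 [0.707 to 1.20] at 48 h, so neither ratio left the counting error, and the control 24 h pool was at 1.51 [1.18 to 1.94] of control 48 h.

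The main entries of the remaining hosts listed no snoRNA. Snhg8, the host of Snora24, had 64 reads in control 24 h, 90 in control 48 h, 155 in APAP 24 h and 121 in APAP 48 h. Both APAP libraries lay above both controls. With APAP the level was 1.81 [1.35 to 2.47] of control at 24 h, and 1.18 [0.888 to 1.56] of it at 48 h.

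Snhg6, the host of Snord87, had 50 reads in each control library, 99 in APAP 24 h and 87 in APAP 48 h. The controls were alike, with a ratio of 1.06 [0.702 to 1.60], and both APAP libraries lay above them. Relative to control, APAP gave 1.48 [1.05 to 2.13] at 24 h, then 1.52 [1.06 to 2.20] at 48 h. Of the 6 tested hosts, Snhg6 alone had an interval above 1 with APAP at both times.

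Snhg12, the host of Snora16a, Snora44, Snora61 and Snord99, had 6 reads in control 24 h, 21 in control 48 h, 23 in APAP 24 h and 18 in APAP 48 h. Here control 24 h was the low library, opposite to Snhg1, at 0.303 [0.100 to 0.776] of control 48 h. The 24 h ratio of APAP to control was 2.87 [1.14 to 8.62], and the 48 h ratio was 0.750 [0.376 to 1.48], and against the control of the other time point these became 0.870 and 2.47.

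Snhg18, the host of Snord123, had 16 reads in control 24 h, 13 in control 48 h, 20 in APAP 24 h and 30 in APAP 48 h. APAP 48 h was the highest library. APAP 24 h was at 0.937 [0.461 to 1.93] of its control, and APAP 48 h at 2.02 [1.02 to 4.21] of its control. The 48 h ratio lay at the 2-fold limit, and with a pseudocount of 1 its log2 was 0.96, just short of it. The 28.1 normalized reads of APAP 48 h were also less than 2-fold above the 18.2 of control 24 h.

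Both other hosts were near the limit of detection. Snhg11, annotated as protein coding and known from neurons, had 5 reads in control 24 h, 8 in control 48 h, 3 in APAP 24 h and 0 in APAP 48 h. The 0 in APAP 48 h allows up to 0.608 RPM, and with 3 reads put in its place the level was at least 3.05-fold lower than in control 48 h, while the 95% interval, which also covers the counting error of the 8 control reads, reaches to 1.95-fold lower. Snhg15, the host of Snora9, had 1, 3, 7 and 4 reads in control 24 h, control 48 h, APAP 24 h and APAP 48 h, and its ratios of 5.24 [0.674 to 236] at 24 h and 1.17 [0.197 to 7.96] at 48 h could not be told from 1 at this depth.

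**Figure D3:**
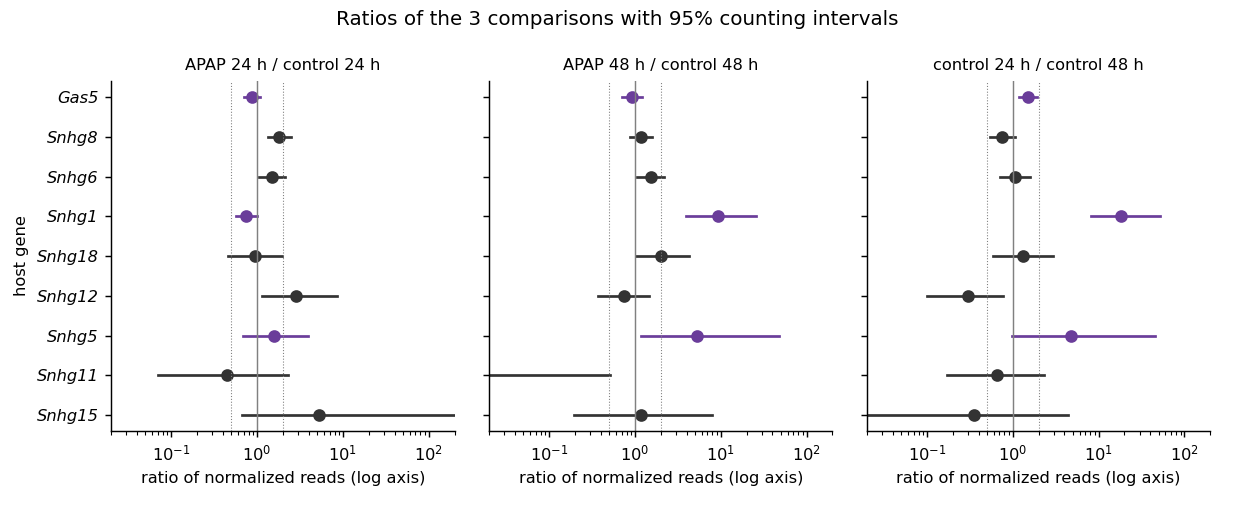
Ratios of normalized reads (horizontal log axes) for 9 host genes in the 3 comparisons, with 95% counting intervals cut off at the edges of the plot. Purple marks genes whose entry also carries snoRNA identifiers, dotted lines mark 2-fold in either direction, and Snhg11 has no point at 48 h because APAP 48 h had 0 reads.

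A gene was counted as changed in size where its ratio reached 2-fold, with counts of 3 or fewer set to 3. At 24 h, 1 of the 6 tested hosts (Snhg12) was at least 2-fold higher with APAP, against 5.85% of all entries, and 0 were at least 2-fold lower, against 5.68%. Intervals lay wholly above 1 for 3 hosts (Snhg6, Snhg8 and Snhg12) and wholly below 1 for Snhg1, against 15.4% and 18.3% of all entries. At 48 h, 2 hosts (Snhg18, and Snhg1 through the control reads it was picked on) were at least 2-fold higher, against 5.76%, and 0 were at least 2-fold lower, against 5.61%, and intervals lay above 1 for 3 (Snhg1, Snhg6 and Snhg18) and below 1 for 0, against 13.9% and 18.9%. Between the controls, where the choice of genes used the values, Snhg1 alone (1 of 6) reached 2-fold in favour of 24 h and Snhg12 alone (1 of 6) 2-fold in favour of 48 h, beside 2.34% and 2.86% of all entries, and intervals lay above 1 for 2 (Snhg1 and Gas5) and below 1 for 1 (Snhg12), beside 8.16% and 10.7%. With so few genes these shares describe the hosts and do not set them apart. The median log2 ratio of the 6 hosts, on normalized reads plus 1, was 0.24 at 24 h and 0.41 at 48 h, beside 0.0071 and -0.015 for all entries tested. The 48 h median takes in Snhg1 through the control reads it was picked on, and a median without Snhg1 alone was not computed. With TMM scaling Snhg5 passed the filter as well, and the median of the then 7 hosts was 0.59 at 24 h and 0.60 at 48 h. These 7 include Snhg1, and Snhg5 had only 2 reads in control 48 h.

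The separate snoRNA entries were low in the same control library as Snhg1. The 16 such entries inside the 10 genes, all 16 of which name the host as well, summed to 81 reads in control 24 h, 6 in control 48 h, 78 in APAP 24 h and 49 in APAP 48 h, and 12 of 16 were at 0 in control 48 h. The 3 separate entries inside Snhg1 summed to 25, 2, 21 and 7 reads in the same order. The 5 inside Gas5 summed to 32, 1, 26 and 31, and the 4 inside Snhg12 to 16, 3, 21 and 8. For Gas5 and Snhg12, the main entry of the host had 115 and 21 reads in control 48 h, against 164 and 6 in control 24 h.

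This was not particular to the 10 genes. Among all 60 snoRNA entries of at most 100 bases, 53 were at 0 in control 48 h, and their sum was 295, 21, 251 and 184 reads. The ratio of control 24 h to control 48 h was 14.9 [9.56 to 24.4] for all 60 and 12.5 [7.88 to 20.8] for the 51 outside the 10 genes. In the 101 longer snoRNA entries the sums were 393, 244, 616 and 494 reads, with a ratio of 1.71 [1.45 to 2.01]. Outside the 10 genes, that ratio was 3.15 [2.17 to 4.68] for 68 longer entries that name a host and 1.37 [1.13 to 1.65] for 26 that do not. The length limit of 100 bases was chosen after the values were seen, and with a limit of 120 bases, which takes in 66 entries, the ratio between the controls was 5.43 [4.22 to 7.06]. For the 60 short entries, APAP 48 h stood 7.66-fold [4.87 to 12.7] above control 48 h, and APAP 24 h at 0.637 [0.537 to 0.757] of control 24 h. With the limit of 120 bases these ratios were 3.36 [2.59 to 4.40] and 0.761 [0.659 to 0.879]. Those of Snhg1 were 9.18, through the control reads it was picked on, and 0.749. How many reads of the Snhg1 entry lay on the stretches of its snoRNAs was not tested, since the table gives 1 count per library for the whole entry.

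**Figure D4:**
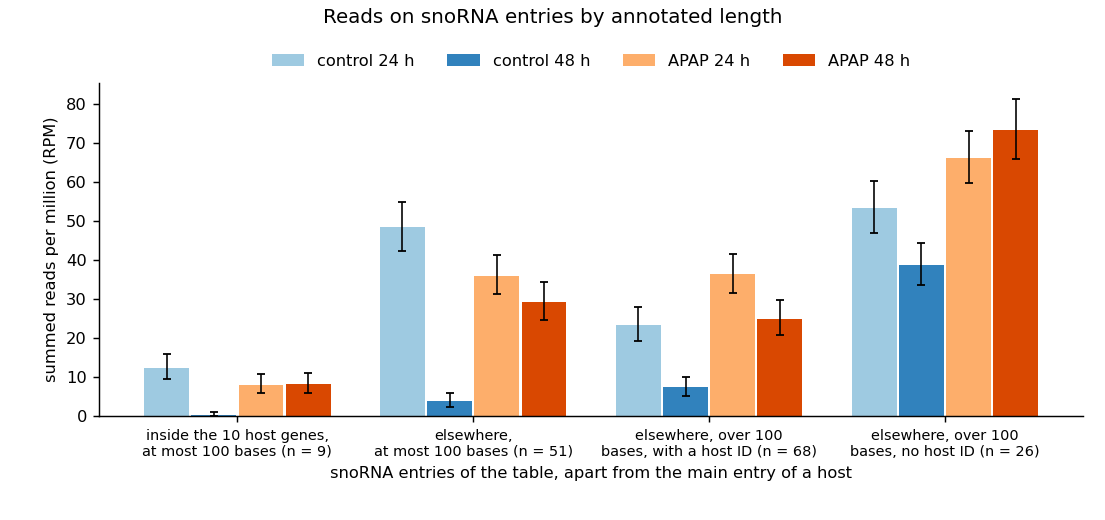
Summed RPM (vertical axis, from 0) of the separate snoRNA entries in the 4 libraries, split by place and annotated length, with the number of entries (n) under each group and bars for the 95% Poisson interval of the summed count. Short entries are nearly empty in control 48 h inside the 10 genes (0.193 RPM) and elsewhere, while longer entries with no host identifier differ less.

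Hosts with and without snoRNA identifiers in their entry can be set side by side. Between the controls, the median log2 ratio was 2.30 for the 2 tested hosts that carry them (Snhg1 at 4.0 and Gas5 at 0.59) and -0.16 for the 4 that do not. Another 77 tested entries in which a host carries snoRNA identifiers had a median of 0.082. Of these, 0 of 77 were at least 2-fold higher in control 24 h, beside 2.34% of all entries, and 1 was at least 2-fold lower, beside 2.86%. Intervals lay above 1 for 17, beside 8.16%, and below 1 for 5, beside 10.7%. Intervals are narrower at higher read counts, and the counts of these 77 were not matched to those of all entries. Snhg1 was picked for its difference between the controls, so its value is no evidence on shared entries.

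**Figure D5:**
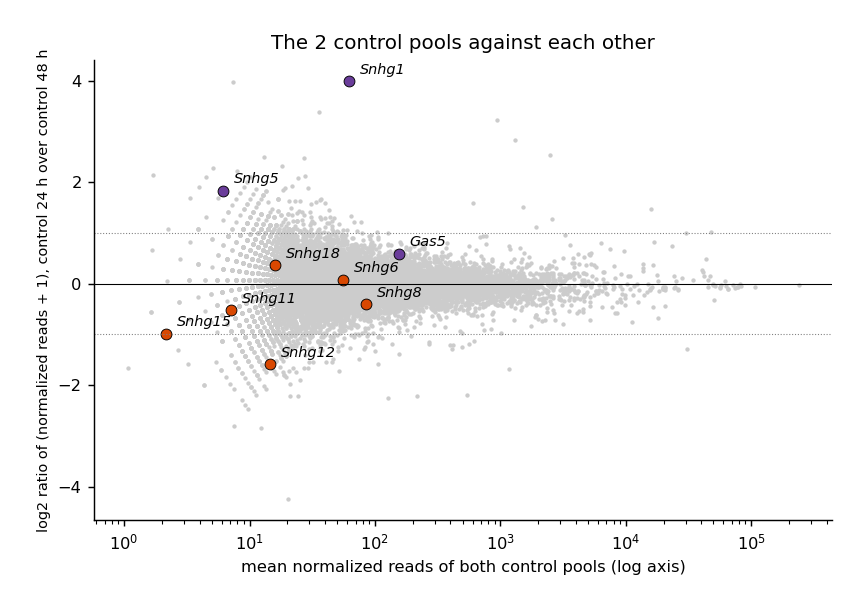
Log2 ratio of normalized reads plus 1, control 24 h over control 48 h (vertical axis), against the mean of both control pools (horizontal log axis), for 12113 entries in grey and 9 host genes in colour. Purple marks hosts whose entry carries snoRNA identifiers, orange marks the others, and Snhg1 is the highest point at 4.0.

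The genes closest to Snhg1 over the 4 libraries, by distance between log2 profiles among 4398 entries averaging 100 or more normalized reads, were Lcn2, Cyp4a14, Fgl1, Malat1 and Lrg1, at distances of 1.33, 1.54, 2.14, 2.27 and 2.28. Lcn2 encodes an iron-siderophore-binding protein of the acute phase and had 3710, 673, 11781 and 3474 reads in control 24 h, control 48 h, APAP 24 h and APAP 48 h. Cyp4a14, a fatty acid hydroxylase induced by fasting, had 2022, 298, 3489 and 689 reads. Malat1, a nuclear long non-coding RNA that hosts no snoRNA, had 802, 283, 524 and 721 reads, with a ratio between the controls of 3.0 [2.62 to 3.45]. These genes were taken for their likeness to Snhg1, so a low control 48 h value follows from that choice and is a description. Neat1, another long non-coding RNA, went the other way between the controls. It had 65, 103, 206 and 141 reads and a ratio of 0.669 [0.483 to 0.922].

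A further list of snoRNA hosts was mostly non-coding, and 9 of its 12 genes had a row. Of the 4 tested, 2 were at least 2-fold higher with APAP at 24 h, beside 5.85% of all entries. These were Epb41l4aos and Taf1d, of which Taf1d also encodes a protein. Epb41l4aos had 13, 32, 56 and 41 reads and a ratio of 3.23 [1.74 to 6.43]. Its control 24 h pool was low, at 0.431 [0.207 to 0.844] of control 48 h. Taf1d had 13, 19, 41 and 25 reads and a ratio of 2.36 [1.24 to 4.81]. Snhg17 had 11, 15, 29 and 10 reads and ratios of 1.98 [0.958 to 4.38] at 24 h and 0.583 [0.234 to 1.39] at 48 h, and Zfas1 had 27, 31, 60 and 41 reads and a 24 h ratio of 1.66 [1.04 to 2.73]. At 48 h, 0 of the 4 had an interval off 1, beside 13.9% of all entries above and 18.9% below. Their median log2 ratio, with Taf1d among the 4, was 1.06 at 24 h and 0.18 at 48 h. With the control pool of the other time point these medians were 0.60 and 0.47. Among the 6 tested hosts of the main set, Snhg8 and Snhg12 had the higher ratio at 24 h against the control of the same time. Snhg1 had it at 48 h, through the control reads it was picked on. With the control of the other time point the order of Snhg8 and Snhg12 turned, with Snhg8 at 1.37 at 24 h and 1.56 at 48 h. For Snhg6, Gas5 and Snhg18 the 48 h ratio over the 24 h ratio could not be told from 1. It was 1.03 [0.631 to 1.67] for Snhg6, 1.04 [0.751 to 1.45] for Gas5 and 2.15 [0.854 to 5.43] for Snhg18. These 3 intervals come from a normal approximation on the log scale.

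Among 33 hosts listed as protein-coding, 11 intervals lay above 1 and 4 below at 24 h, and 11 and 5 at 48 h. Of all entries, 15.4% lay above and 18.3% below at 24 h, and 13.9% and 18.9% at 48 h. Intervals are narrower at higher read counts, and many of these hosts are abundant. Ncl, the nucleolar protein nucleolin, had a ratio of 1.62 [1.43 to 1.85] at 24 h and 1.07 [0.933 to 1.23] at 48 h. Cwf19l1 was at 0.326 [0.183 to 0.562] of control at 24 h.

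Of 8 genes for core proteins of snoRNA particles, 2 had an interval above 1 at 24 h and 3 at 48 h, and 0 lay below. The shares of all entries were 15.4% above and 18.3% below at 24 h, and 13.9% and 18.9% at 48 h. Nhp2, a subunit of H/ACA particles, had 129, 154, 342 and 290 reads and ratios of 1.99 [1.62 to 2.45] and 1.65 [1.35 to 2.02]. Nop58, a core subunit of C/D particles, had 51, 34, 121 and 65 reads and ratios of 1.78 [1.27 to 2.52] and 1.67 [1.09 to 2.61]. Nop56, its partner, had ratios of 1.27 [0.881 to 1.85] and 1.66 [1.04 to 2.70].

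Among 17 assembly and processing factors, Rpap3, a cofactor of HSP90 in particle assembly, had 16, 12, 47 and 53 reads and ratios of 2.20 [1.23 to 4.16] and, later, 3.86 [2.04 to 7.94]. The list had 1 interval above 1 and 1 below at 24 h, and 3 and 1 at 48 h. Of 15 factors of nonsense-mediated decay, 3 had an interval above 1 at 24 h, among them the kinase Smg1 at 1.78 [1.23 to 2.62], and 0 at 48 h. Beside both lists, 15.4% of all entries lay above 1 and 18.3% below at 24 h, and 13.9% and 18.9% at 48 h.

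Among 18 ribosome biogenesis factors, 7 intervals lay above 1 and 0 below at 24 h, beside 15.4% and 18.3% of all entries. At 48 h, 1 lay above and 1 below, beside 13.9% and 18.9%. Myc, a transcription factor that drives ribosome production, had 4, 11, 36 and 21 reads and a ratio of 6.74 [2.42 to 26.1] at 24 h, and Npm1, a nucleolar chaperone, had 1.78 [1.48 to 2.15]. For Myc, control 24 h was at 0.386 [0.0895 to 1.30] of control 48 h. The median log2 ratio of this list was 0.36 at 24 h and 0.14 at 48 h.

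Markers of other cells were summed as well. RPM rests on library totals, unlike the ratios. With library totals the median log2 APAP ratio of all entries lay 0.18 higher at 24 h and 0.26 higher at 48 h. Summed RPM of 10 myeloid markers was 129 in control 24 h, 133 in control 48 h, 226 in APAP 24 h and 357 in APAP 48 h, with 0 of 10 at 0 in any library. The markers did not all go the same way. At 24 h, 5 of 9 tested had an interval above 1 and 1 had it below, beside 15.4% and 18.3% of all entries. The 1 below was Clec4f, at 0.534 [0.441 to 0.645] of control. The sum of 7 proliferation markers was 14, 18.3, 22.5 and 32.8 RPM, from 68, 95, 128 and 162 reads. Of these, Pcna had 57, 62, 92 and 98, and 2, 0, 0 and 1 markers were at 0. Only 2 of the 7 were tested, and 0 had an interval off 1. That of 7 lymphocyte markers was 3.91, 2.50, 1.58 and 2.63 RPM, from only 19, 13, 9 and 13 reads. Here 0 of 7 were tested, and 2, 1, 3 and 1 were at 0. The part of these cells in the values of Snhg1 and in the APAP ratios of Snhg6, Snhg8, Snhg12 and Snhg18 was not tested.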

How the data were processed

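The authors pooled hepatic RNA by group, prepared 3′ end libraries (MACE) with molecular tags, removed duplicate reads, mapped reads to mm10 and counted them per gene, and HTSeq and DESeq2 are named in the submitters' processing notes. Versions are not given in the sources used here. The deposited table holds raw counts per gene for 4 libraries. Its columns of RPM, log2 ratios, p-values and FDR are the authors' own comparisons or scalings and were not used, and RPM here was computed from the counts.

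Counts were scaled by median-of-ratios size factors (DESeq2 1.42.0, 16338 genes with a read in every library). Ratios carry exact Clopper-Pearson intervals of the share of reads (scipy 1.17.1) at 95%, for counting error only. A call was a ratio of at least 2-fold, with counts of 3 or fewer set to 3, among entries averaging 10 or more normalized reads. Medians used a pseudocount of 1. snoRNAs were placed with GENCODE M21 on GRCm38, where 26964 of 27027 entries matched, and 2430 entries held several gene identifiers, joined as alternatives or merged under 1 symbol. Step checks were made on simulated data.

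The members and gene lists were chosen with earlier results of these data known. Named genes were all members, up to 3 genes per list with the largest 24 h ratio in either direction, and the 5 genes with profiles closest to Snhg1. Genes shown outside that rule (Zfas1, Derl3, Clec4f and the entries that overlap members) were picked after their values were seen. Alternatives were TMM (edgeR 4.0.16), library totals, floors and pseudocounts, other thresholds and filters, and other control pools. No sample was left out, and replicate checks were not possible with 1 library per group.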

Additional observations from a re-analysis of the deposited data

Results flagged for a closer look

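For 3 of the 6 tested hosts the APAP ratio at 48 h and that at 24 h differed by more than counting error. With 1 library per group the difference between conditions was not tested. The share of all entries that differ in this way was not computed, so the count does not set the hosts apart. Brackets here are 95% intervals from a normal approximation on the log scale, not exact ones. The ratio of the 48 h ratio to the 24 h ratio was 12.3 [5.08 to 29.6] for Snhg1, 0.261 [0.0871 to 0.782] for Snhg12 and 0.648 [0.435 to 0.966] for Snhg8. For Snhg1 the 24 h ratio was below 1 and the 48 h ratio above 1, and for Snhg12 the reverse held. Each of these ratios uses both control pools, and the controls themselves differed 18.4-fold for Snhg1, the value by which it was picked, so its value here was set by that choice and is a description. For Snhg12 control 24 h was at 0.303 of control 48 h, and for Snhg8 at 0.754 (exact interval 0.539 to 1.05). With the control pool of the other time point, Snhg8 was at 1.37 of control for APAP 24 h and at 1.56 for APAP 48 h.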

How the results depend on the processing

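No paired analysis was possible because each group had 1 library. The choice of control pool changed the most. With the control pool of the other time point, Snhg1 was at 13.8 of control for APAP 24 h and at 0.500 for APAP 48 h, and with the sum of both pools at 1.46 and 0.973, so both ratios reversed. Snhg12 at 24 h reversed to 0.870 with the other control. The number of hosts at least 2-fold higher with APAP at 24 h, 1 as reported, was 2 with library totals or a 1.5-fold threshold, and 0 with a floor of 10 reads or the sum of both controls. At 48 h it was 2 as reported, 3 with TMM, library totals, a 1.5-fold threshold or no filter, 1 with a pseudocount of 1, with the other control or without the 3 hosts whose entry carries snoRNA identifiers (chosen after seeing the data), and 0 with the sum of both controls. Snhg18 dropped out with a pseudocount of 1, with the other control and with the sum of both controls. Hosts at least 2-fold lower with APAP went from 0 to 1 without a filter at either time, and to 1 at 48 h with the other control. Between the controls, 1 host higher became 2 with TMM, library totals, a 1.5-fold threshold or no filter and 0 without those 3 hosts, and 1 host lower became 0 with a floor of 10 reads. All 19 alternative medians of the hosts stayed within the counting error of the middle genes, which is wide. The median log2 ratio moved from 0.24 to 0.59 (TMM) and 0.74 (library totals) at 24 h and from 0.41 to 0.60 and 0.86 at 48 h, where Snhg5, at a mean of 10.01 and 10.3 normalized reads, entered as a further host. These 48 h medians take in Snhg1 through the control reads it was picked on. Of 134 alternative ratios of single hosts, 123 stayed within the 95% interval. The ratio of short snoRNA entries between the controls was 5.43 with a limit of 120 bases and stayed within its interval with 80 bases, TMM and library totals. With library totals the median of all entries shifted by 0.18 (log2) at 24 h and 0.26 at 48 h, and the hepatocyte median at 24 h reversed from -0.15 to 0.038. Depth limits Snhg11 and Snhg15, with at most 8 and 7 reads per library.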
